A study of Homo sapiens with 36 samples.

Results

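The genes described here are 53 genes of DNA damage signalling and repair, taken from the deposited gene counts by their symbols. Each of the 53 symbols had a row among the 37549 named genes, and all 53 passed the filter on low counts in every line; the lowest count in any library was 42. The libraries came from 3 human B-cell leukaemia lines, MEC1, JVM2 and EHEB, with 12 libraries a line. MEC1 was exposed for 48 h, JVM2 for 72 h and EHEB for 96 h, so the effect of a line and that of its exposure time cannot be told apart. Each line had 3 libraries with DMSO, the drug vehicle, 3 with 50 µM fludarabine, a purine analogue that is built into DNA, 3 with 5 µM ibrutinib, an inhibitor of Bruton tyrosine kinase, and 3 with 10 µM idelalisib, an inhibitor of phosphatidylinositol-3-kinase delta. The labels name triplicates without saying that they were separate cultures, so p-values measure only the spread between these libraries, which may be technical. Libraries are named by the number in their label, and values are listed in that order. The inhibitor libraries carry a separate range of numbers that holds no DMSO or fludarabine library. In every comparison below that uses an inhibitor, library series and drug therefore cannot be told apart. The 3 lines are established cultures and not replicates of each other, and MEC1 is widely used as a line with defective p53. Each line received the same fludarabine dose, although JVM2 control cells were more sensitive to fludarabine than MEC1 in the paper's viability assays. The part of this sensitivity in the differences between lines was not tested.

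Cells read DNA damage through the kinases ATM, which answers to double-strand breaks, and ATR, which answers to stalled replication forks. These act through CHEK2 and CHEK1 to hold the cell cycle, while marked chromatin gathers repair factors at the lesion. Breaks are then joined end to end or repaired from a sister chromatid by homologous recombination. Crosslinks are unhooked with the help of the Fanconi anaemia proteins, and altered bases are cut out by excision and mismatch repair. Many of the recombination and Fanconi genes are known to be transcribed mainly in dividing cells, and in bulk RNA fewer such cells and less RNA per cell cannot be told apart.

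Promoters from RefSeq (GRCh38.p14) were matched by symbol for 47 of the 53 genes, and the 250 bases before the annotated start were searched on both strands. The ETS core CCGGAAG stood in 14 of the 47 promoters (29.8%) and in 8.52% of all 35116 promoters in the table. The box CCAAT was in 21 of the 47 (44.7%) and in 32% of all promoters, and the cell cycle element TTTGAA or TTCGAA in 7 (14.9%) against 14.3%. E2F sites written as TTTCCCGC, TTTCGCGC, TTTGCCGC or TTTGGCGC were present in 3 promoters (6.38%) against 2.79%, and the NRF1 site GCGCATGC in 3 (6.38%) against 2.63%. The p53 consensus was found in 0 of the 47 and in 0.0171% of all promoters. The 35116 promoters were not filtered by gene type or expression, so they are not matched to these genes. A match describes letters in a window and is not a binding site, and no match says nothing of the factor. 5 of these promoters are printed, from genes with contrasting responses. LIG4 and PALB2 were higher with fludarabine in every line, and ATM was lower in every line. POLQ and RAD54L fell with fludarabine in JVM2 but did not pass the fludarabine test in EHEB. Each printed promoter holds an ETS core, a CCAAT box or both. Neither motif stood in the promoters of RAD51C, higher in every line, or of BARD1 and PARP1, lower in every line. EXO1 and XRCC2, which fell with fludarabine in JVM2, also had neither. A link between motif and response was not tested. Capitals mark the ETS core and the CCAAT box on either strand (CTTCCGG and ATTGG on the other), and these 2 motifs cannot overlap each other.
LIG4 (chr13:108218350-108218599, minus strand): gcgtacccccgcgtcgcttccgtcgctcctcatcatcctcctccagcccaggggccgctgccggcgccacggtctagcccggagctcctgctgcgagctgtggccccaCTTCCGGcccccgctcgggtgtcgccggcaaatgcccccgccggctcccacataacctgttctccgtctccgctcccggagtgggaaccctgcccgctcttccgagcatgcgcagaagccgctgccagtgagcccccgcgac
PALB2 (chr16:23641311-23641560, minus strand): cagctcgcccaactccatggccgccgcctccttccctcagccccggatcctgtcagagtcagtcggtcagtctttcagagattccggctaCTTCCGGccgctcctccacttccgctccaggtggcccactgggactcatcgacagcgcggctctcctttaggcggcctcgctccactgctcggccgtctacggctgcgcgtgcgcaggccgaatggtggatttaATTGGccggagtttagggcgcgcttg
ATM (chr11:108222817-108223066, plus strand): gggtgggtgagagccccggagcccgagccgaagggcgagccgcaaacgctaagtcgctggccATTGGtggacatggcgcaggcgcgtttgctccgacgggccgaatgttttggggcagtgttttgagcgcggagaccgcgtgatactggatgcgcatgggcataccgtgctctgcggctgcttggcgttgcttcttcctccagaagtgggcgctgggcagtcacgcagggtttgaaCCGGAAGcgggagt
POLQ (chr3:121545989-121546238, minus strand): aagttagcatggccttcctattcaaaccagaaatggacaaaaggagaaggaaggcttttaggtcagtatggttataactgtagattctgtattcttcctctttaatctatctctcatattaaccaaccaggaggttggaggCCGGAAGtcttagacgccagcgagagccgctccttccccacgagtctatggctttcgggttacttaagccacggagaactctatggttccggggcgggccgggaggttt
RAD54L (chr1:46247438-46247687, plus strand): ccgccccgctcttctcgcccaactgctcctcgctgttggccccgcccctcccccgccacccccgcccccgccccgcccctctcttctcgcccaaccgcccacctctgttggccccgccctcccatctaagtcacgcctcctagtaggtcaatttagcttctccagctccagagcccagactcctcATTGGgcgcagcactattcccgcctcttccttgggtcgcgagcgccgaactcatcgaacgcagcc

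The first question was how many of these genes each drug moved against DMSO. Levels are CPM, that is counts brought to a common library size and scaled within each line by TMM, a gene counts as called where edgeR's quasi-likelihood test gave an adjusted p under 0.05 over all genes tested, and changes are log2 fold changes with their standard error. With fludarabine, 16 of the 53 genes rose and 17 fell in MEC1, where 21.2% and 22.7% of all genes tested were called higher and lower. JVM2 had 8 that rose and 27 that fell (all genes 23.9% and 23.3%), so the calls there were mostly falls. EHEB had 8 and 9 (all genes 18.4% and 19.2%), shares near the background. The median change of the 53 with fludarabine was 0.08 in MEC1, -0.20 in JVM2 and 0.03 in EHEB, beside 0.06, 0.06 and 0.02 over all genes.

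Ibrutinib raised 10 and lowered 21 of the genes in MEC1 (all genes 23.7% and 23.9%). In JVM2 it raised 13 and lowered 5 (all genes 14.5% and 15%), and in EHEB 4 and 2 (all genes 8.5% and 11.2%). Idelalisib lowered more members than it raised in each line, with 9 higher and 24 lower in MEC1 (all genes 27.6% and 27.4%), 12 and 23 in JVM2 (all genes 21.6% and 22.6%) and 4 and 23 in EHEB (all genes 15.1% and 18.2%). The medians of the 53 were -0.11, 0.15 and 0.04 with ibrutinib and -0.14, -0.08 and -0.19 with idelalisib in MEC1, JVM2 and EHEB. Over all genes they were 0.06, 0.00 and 0.01 with ibrutinib and 0.08, 0.03 and 0.01 with idelalisib. RAD50, a subunit of the MRN break sensor, was the one member that passed no test against DMSO; 76.9% of its exon bases lie in other annotated genes.

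These splits moved with the scaling. Scaling by library size alone shifted the median of all genes with fludarabine to 0.31 in MEC1, 0.26 in JVM2 and 0.13 in EHEB. The changes given elsewhere are on the TMM scale. With library size scaling fludarabine gave 29 members higher and 4 lower in MEC1, 14 and 18 in JVM2 and 14 and 6 in EHEB. Ibrutinib gave 10 and 1 in EHEB, and idelalisib 5 and 31 in MEC1, 13 and 15 in JVM2 and 9 and 21 in EHEB. The excess of falls over rises was kept with idelalisib in the 3 lines and with fludarabine in JVM2, and was turned with fludarabine in MEC1 and EHEB. Leaving out 1 library also moved 2 fludarabine counts in EHEB: 5 members were called higher without DMSO EHEB_133 or EHEB_135 or fludarabine EHEB_144, and 5 lower without DMSO EHEB_134 or fludarabine EHEB_143. For ibrutinib, the count of higher calls in MEC1 was 6 without DMSO MEC1_38 or MEC1_39 or ibrutinib MEC1_185, and the count of lower calls in JVM2 was 3 without DMSO JVM2_87 or ibrutinib JVM2_234. With ibrutinib in EHEB the lower calls numbered 1 without DMSO EHEB_133 or EHEB_134 or ibrutinib EHEB_282, and 0 without ibrutinib EHEB_280 or EHEB_281. For idelalisib, the higher calls in MEC1 were 5 without idelalisib MEC1_190. Further calls with fludarabine given below that did not pass with library size scaling were H2AFX in MEC1 (-0.08), MRE11 in MEC1 (-0.27) and JVM2 (-0.14), NBN in MEC1 (-0.20), WRN in MEC1 (-0.20) and EHEB (-0.14), RAD54L in MEC1 (-0.13), FANCE in MEC1 (-0.11), FANCI in MEC1 (-0.17), XRCC5 in JVM2 (-0.07), XRCC6 in MEC1 (-0.10), MSH6 in MEC1 (-0.19), PARP2 in JVM2 (-0.02).

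**Figure D1:**
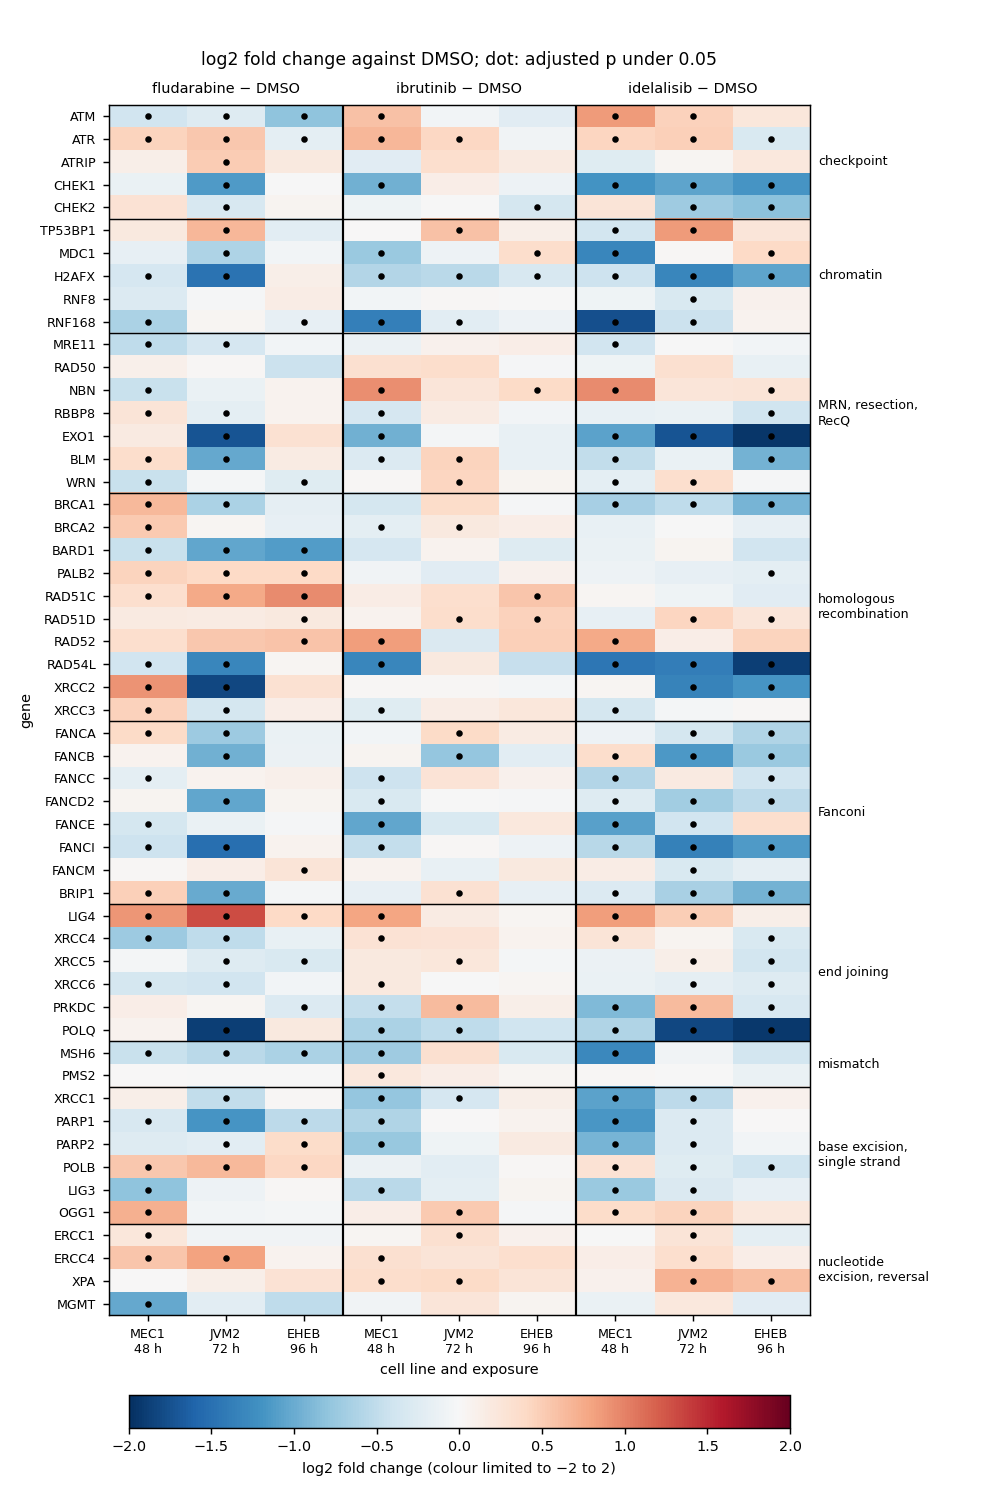
The heat map gives the log2 fold change against DMSO of the 53 genes (rows, grouped by role) for each drug and line (columns), with a dot where the edgeR adjusted p was under 0.05. LIG4, PALB2, RAD51C and POLB are red and ATM, BARD1, MSH6 and PARP1 blue in all 3 fludarabine columns, while EXO1, RAD54L, FANCI and POLQ are blue in JVM2 with fludarabine and in JVM2 and EHEB with idelalisib.

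**Figure D2:**
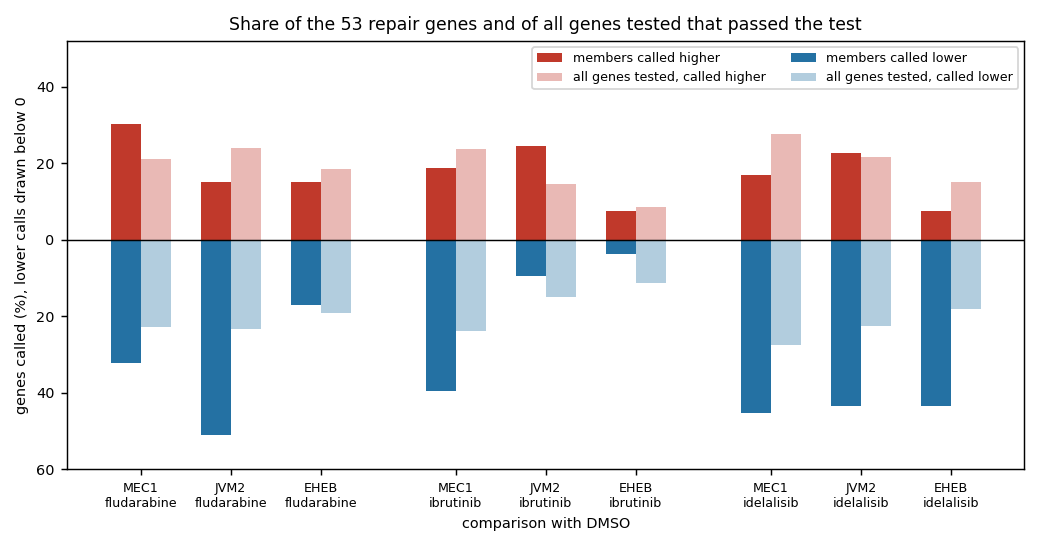
Bars give the percentage of the 53 genes (dark) and of all genes tested (pale) called higher (above 0) or lower (drawn below 0) against DMSO, by line and drug. The dark bars for lower calls exceed the pale ones with idelalisib in all 3 lines, with fludarabine in JVM2 and MEC1 and with ibrutinib in MEC1. Those for higher calls exceed the pale ones with fludarabine in MEC1, with ibrutinib in JVM2 and, narrowly, with idelalisib in JVM2. The balance of fludarabine calls in MEC1 turned towards rises with library size scaling.

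Of the 53 genes, 8 were called in the same direction with fludarabine in all 3 lines, 4 higher and 4 lower. Of the 15181 genes that passed the filter in all lines, 5.1% were higher and 8.05% lower by this rule. The members thus lay near the background. LIG4, the ligase that seals ends in nonhomologous end joining, had the largest rise of any member with fludarabine, in JVM2. In MEC1, LIG4 measured 16.8, 17.8 and 18.8 CPM with DMSO, 32.3, 32.5 and 33.8 with fludarabine, 29.5, 32.7 and 30.1 with ibrutinib and 34.4, 28.8 and 32.5 with idelalisib. In JVM2, LIG4 measured 21.7, 20.5 and 19.6 CPM with DMSO, 50.8, 50.7 and 51.1 with fludarabine, 22.9, 21.2 and 25.2 with ibrutinib and 28.0, 28.1 and 30.8 with idelalisib. In EHEB, LIG4 measured 48.8, 42.4 and 39.4 CPM with DMSO, 57.3, 58.4 and 57.1 with fludarabine, 49.9, 42.3 and 41.6 with ibrutinib and 42.5, 48.7 and 49.9 with idelalisib. All fludarabine libraries lay above their DMSO libraries, and LIG4 rose 1.85-fold in MEC1 (log2 0.89 ± 0.08, edgeR adjusted p = 7.42e-06), 2.47-fold in JVM2 (log2 1.303 ± 0.07, adjusted p = 1.17e-07) and 1.32-fold in EHEB (log2 0.40 ± 0.10, adjusted p = 0.0069). Both inhibitors also raised LIG4 in MEC1, by 0.79 and 0.84 on the log2 scale, and there the fludarabine libraries overlapped those of each inhibitor.

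PALB2 bridges BRCA1 and BRCA2 at breaks. In MEC1, PALB2 measured 49.8, 53.1 and 42.3 CPM with DMSO, 68.2, 64.7 and 64.3 with fludarabine, 43.0, 46.7 and 49.2 with ibrutinib and 46.9, 45.6 and 43.2 with idelalisib. In JVM2, PALB2 measured 30.2, 34.3 and 36.1 CPM with DMSO, 43.4, 46.003 and 43.0 with fludarabine, 29.0, 27.7 and 29.8 with ibrutinib and 32.4, 28.1 and 29.1 with idelalisib. In EHEB, PALB2 measured 35.7, 34.1 and 32.2 CPM with DMSO, 47.6, 42.0 and 45.2 with fludarabine, 36.5, 35.8 and 36.01 with ibrutinib and 29.1, 28.9 and 31.4 with idelalisib. The fludarabine libraries were above the other 9 of their line in all 3 lines, and the rises against DMSO were 0.44 ± 0.09, 0.39 ± 0.08 and 0.40 ± 0.07 (log2; edgeR adjusted p = 0.0016, 0.00163 and 6.52e-04). With idelalisib PALB2 fell by 0.19 in EHEB, a call that ended without any 1 of the 6 libraries (edgeR adjusted p = 0.0509 to 0.204).

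RAD51C acts in homologous recombination and crosslink repair. In MEC1, RAD51C measured 20.2, 19.96 and 18.8 CPM with DMSO, 26.5, 23.7 and 24.5 with fludarabine, 20.3, 22.1 and 23.3 with ibrutinib and 22.4, 19.2 and 18.8 with idelalisib. In JVM2, RAD51C measured 7.93, 11.4 and 8.70 CPM with DMSO, 16.3, 13.1 and 17.9 with fludarabine, 11.6, 12.3 and 11.495 with ibrutinib and 9.69, 8.81 and 7.97 with idelalisib. In EHEB, RAD51C measured 13.3, 14.2 and 12.5 CPM with DMSO, 24.0, 23.4 and 29.7 with fludarabine, 18.4, 20.01 and 20.3 with ibrutinib and 9.65, 13.7 and 10.7 with idelalisib. The rise was 0.34 ± 0.09 in MEC1 (edgeR adjusted p = 0.00996), 0.75 ± 0.15 in JVM2 (adjusted p = 0.00154) and 0.94 ± 0.13 in EHEB (adjusted p = 1.99e-04), and no fludarabine library reached down to its DMSO group. Ibrutinib raised RAD51C in EHEB too, by 0.55, a call that ended without DMSO EHEB_135 (edgeR adjusted p = 0.0515).

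POLB fills the gap in base excision repair. In MEC1, POLB measured 18.7, 17.6 and 20.2 CPM with DMSO, 31.1, 25.6 and 25.1 with fludarabine, 16.0, 18.6 and 17.7 with ibrutinib and 23.9, 21.6 and 23.9 with idelalisib. In JVM2, POLB measured 16.0, 16.0 and 15.7 CPM with DMSO, 24.7, 25.5 and 24.7 with fludarabine, 13.0, 13.6 and 14.9 with ibrutinib and 14.5, 12.6 and 13.1 with idelalisib. In EHEB, POLB measured 22.2, 22.01 and 19.96 CPM with DMSO, 29.7, 29.0 and 26.4 with fludarabine, 23.4, 22.1 and 19.5 with ibrutinib and 15.9, 16.4 and 16.4 with idelalisib. Fludarabine raised it by 0.53 ± 0.10, 0.65 ± 0.07 and 0.41 ± 0.08 (log2; edgeR adjusted p = 0.00137, 2.77e-05 and 0.00269), with no overlap with DMSO in any line. Idelalisib moved POLB in opposite directions, up by 0.30 in MEC1 and down in JVM2 and EHEB (-0.25 and -0.40). The calls ended for POLB with idelalisib in MEC1 without DMSO MEC1_37 or MEC1_38 or idelalisib MEC1_190 or MEC1_192 (edgeR adjusted p = 0.0741 to 0.1) and POLB with idelalisib in JVM2 without idelalisib JVM2_239 or JVM2_240 (edgeR adjusted p = 0.0633 to 0.0868).

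Among the falls, ATM, the apical kinase of the break response, dropped most in EHEB. In MEC1, ATM measured 255, 286.1 and 298 CPM with DMSO, 212, 243 and 193 with fludarabine, 391, 505 and 368 with ibrutinib and 491, 524 and 495 with idelalisib. In JVM2, ATM measured 220.2, 195 and 200.004 CPM with DMSO, 160.1, 169 and 185.2 with fludarabine, 196, 188 and 206 with ibrutinib and 278, 289.8 and 276 with idelalisib. In EHEB, ATM measured 331, 384 and 313 CPM with DMSO, 183, 201 and 205 with fludarabine, 299, 283 and 294 with ibrutinib and 439.5, 383 and 381 with idelalisib. With fludarabine it fell by 0.38 ± 0.12 in MEC1 (edgeR adjusted p = 0.0239), fell by 0.26 ± 0.06 in JVM2 (adjusted p = 0.00687) and fell by 0.81 ± 0.08 in EHEB (adjusted p = 1.78e-05), without overlap with DMSO. Idelalisib moved ATM the other way, to 0.85 in MEC1 and 0.46 in JVM2, and ibrutinib raised it by 0.59 in MEC1. The MEC1 fall with fludarabine did not pass without DMSO MEC1_38 or MEC1_39 or fludarabine MEC1_46 or MEC1_48 (edgeR adjusted p = 0.0583 to 0.0863), nor with library size scaling, where the change was -0.13 in MEC1 and -0.06 in JVM2.

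BARD1, the partner of BRCA1, fell with fludarabine and passed no test with either inhibitor. In MEC1, BARD1 measured 170.3, 174 and 167 CPM with DMSO, 128, 121 and 126 with fludarabine, 111, 126 and 166 with ibrutinib and 197, 128 and 141 with idelalisib. In JVM2, BARD1 measured 94.1, 127 and 89.7 CPM with DMSO, 54.2, 51.9 and 44.6 with fludarabine, 123, 119 and 83.1 with ibrutinib and 109, 107 and 108 with idelalisib. In EHEB, BARD1 measured 119, 116 and 74.2 CPM with DMSO, 48.6, 49.7 and 44.1 with fludarabine, 88.7, 78.1 and 90.9 with ibrutinib and 79.1, 79.7 and 77.7 with idelalisib. It fell by 1.04 ± 0.16 in JVM2 (edgeR adjusted p = 2.82e-04) and fell by 1.12 ± 0.15 in EHEB (adjusted p = 1.22e-04), where each fludarabine library lay below the other 9. The MEC1 fall was smaller (-0.44 ± 0.16) and ended without any 1 of the 6 libraries (edgeR adjusted p = 0.0741 to 0.105), and it was -0.19 with library size scaling. The inhibitor changes ran from -0.39 to 0.06.

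PARP1, which senses single-strand breaks, had high levels in all 3 lines. In MEC1, PARP1 measured 400.3, 419 and 391 CPM with DMSO, 334, 311 and 322 with fludarabine, 281.4, 235 and 285 with ibrutinib and 172, 187 and 182 with idelalisib. In JVM2, PARP1 measured 424, 418 and 443 CPM with DMSO, 191.2, 197 and 179 with fludarabine, 439, 444 and 411 with ibrutinib and 349.6, 354 and 353 with idelalisib. In EHEB, PARP1 measured 335, 364 and 349 CPM with DMSO, 248, 242 and 237.99 with fludarabine, 367, 355 and 384 with ibrutinib and 353, 369 and 335 with idelalisib. With fludarabine it was 2.26-fold lower in JVM2 (log2 -1.18 ± 0.05, edgeR adjusted p = 8.79e-09) and 1.44-fold lower in EHEB (log2 -0.52 ± 0.05, adjusted p = 1.16e-05), below every other library of the line. In MEC1 the order was different: PARP1 was lower with fludarabine (-0.32), lower still with ibrutinib (-0.60) and lowest with idelalisib (-1.16). With library size scaling the MEC1 change with fludarabine was -0.07 and did not pass.

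MSH6 is the mismatch recognition subunit; 24.2% of its exon bases lie in other genes, among them FBXO11 on the opposite strand, and whether the counting used strand is not given in the sources used here. In MEC1, MSH6 measured 219, 217 and 220.2 CPM with DMSO, 164, 163 and 158 with fludarabine, 143.96, 127 and 128 with ibrutinib and 84.6, 94.5 and 89.4 with idelalisib. In JVM2, MSH6 measured 73.3, 74.4 and 41.4 CPM with DMSO, 47.7, 43.3 and 38.7 with fludarabine, 74.0, 79.9 and 82.4 with ibrutinib and 54.0, 68.1 and 57.0 with idelalisib. In EHEB, MSH6 measured 76.6, 87.003 and 78.9 CPM with DMSO, 53.1, 53.5 and 50.7 with fludarabine, 81.0, 40.4 and 75.7 with ibrutinib and 60.7, 64.9 and 63.2 with idelalisib. With fludarabine the change was -0.44 ± 0.06 in MEC1 (edgeR adjusted p = 1.71e-04), -0.54 ± 0.19 in JVM2 (adjusted p = 0.0359) and -0.63 ± 0.19 in EHEB (adjusted p = 0.026). In JVM2 the lowest DMSO library overlapped the fludarabine group, and the fall ended without DMSO JVM2_85 or JVM2_86 or fludarabine JVM2_95 or JVM2_96 (edgeR adjusted p = 0.0803 to 0.14), as well as in limma-voom and with library size scaling. In EHEB it ended without DMSO EHEB_134 or fludarabine EHEB_142 or EHEB_143 or EHEB_144 (edgeR adjusted p = 0.0596 to 0.0765). MSH6 was lowest with idelalisib in MEC1, at -1.29 against DMSO, and PMS2, a subunit of the complex that acts after mismatch recognition, changed by 0.00, -0.01 and 0.00 with fludarabine (95% intervals -0.16 to 0.16, -0.17 to 0.15 and -0.14 to 0.14 in MEC1, JVM2 and EHEB).

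**Figure D3:**
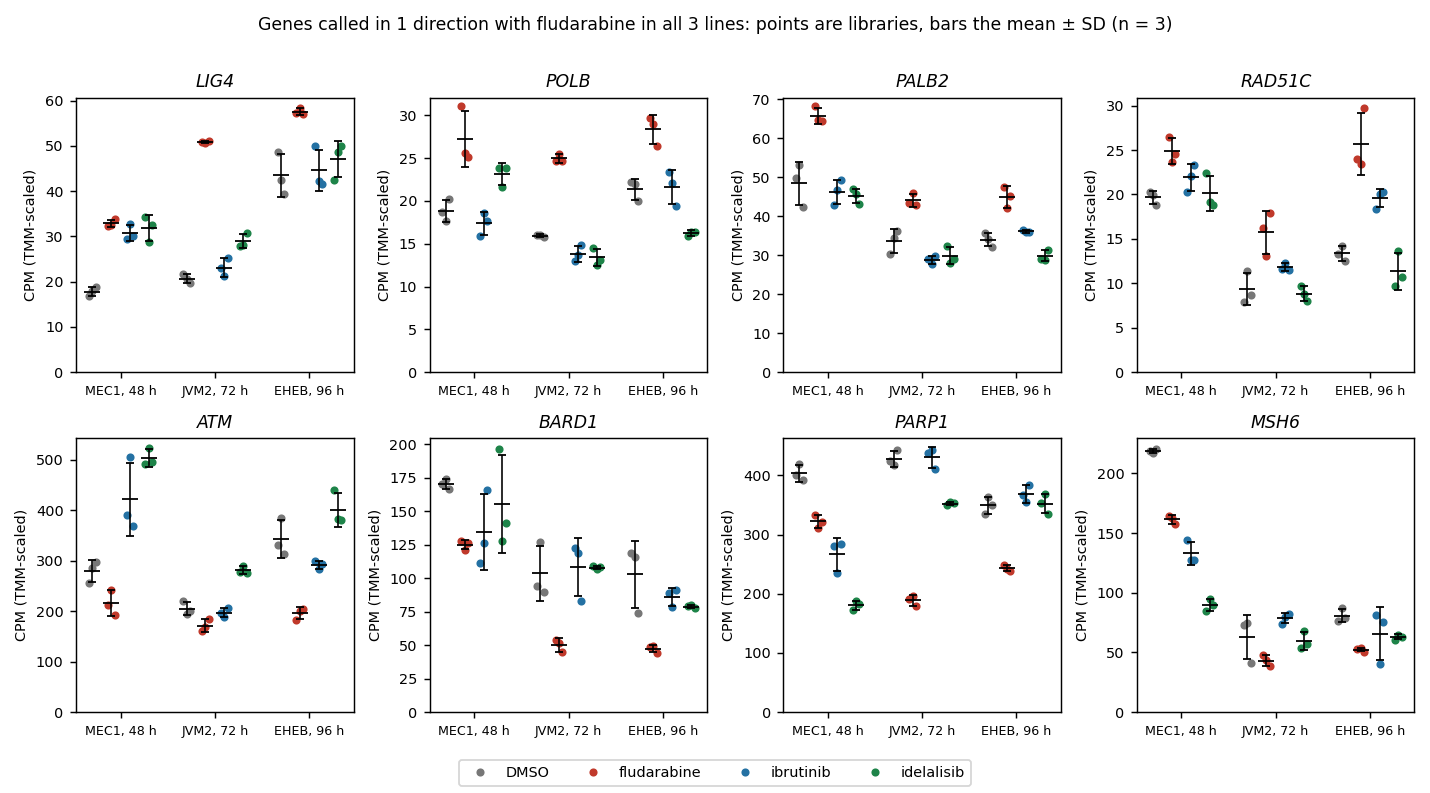
Each panel gives the CPM of 1 gene called in the same direction with fludarabine in all 3 lines, with points for libraries and bars for the mean ± SD of 3. The fludarabine points of PALB2 lie above the other 9 points of each line, and those of BARD1 lie below them in JVM2 and EHEB.

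The checkpoint kinases had no common pattern across lines and drugs. After ATM, given above, ATR is described first, and its direction differed between lines. In MEC1, ATR measured 64.4, 68.2 and 61.5 CPM with DMSO, 92.7, 82.3 and 88.6 with fludarabine, 99.9, 102 and 104 with ibrutinib and 88.8, 83.1 and 90.3 with idelalisib. In JVM2, ATR measured 69.6, 67.5 and 66.9 CPM with DMSO, 93.3, 94.8 and 109 with fludarabine, 88.8, 91.0 and 92.7 with ibrutinib and 93.5, 92.3 and 97.2 with idelalisib. In EHEB, ATR measured 107, 95.8 and 92.1 CPM with DMSO, 81.9, 88.2 and 86.7 with fludarabine, 97.8, 87.2 and 94.1 with ibrutinib and 82.1, 77.4 and 78.5 with idelalisib. All 3 drugs raised ATR in MEC1 (0.44, 0.66 and 0.43 with fludarabine, ibrutinib and idelalisib) and in JVM2 (0.54, 0.42 and 0.47), with every treated library above DMSO. EHEB went the other way, with -0.20 ± 0.07 for fludarabine (edgeR adjusted p = 0.0379) and -0.31 ± 0.07 for idelalisib (adjusted p = 0.00456). The EHEB fall with fludarabine ended without DMSO EHEB_133 or EHEB_134 or fludarabine EHEB_142 or EHEB_143 or EHEB_144 (edgeR adjusted p = 0.0554 to 0.141), and it did not pass with library size scaling (-0.09). ATRIP, the partner that brings ATR to single-stranded DNA (26.7% of its exon bases lie in other genes), rose with fludarabine in JVM2 (0.50 ± 0.15), a call that ended without DMSO JVM2_85 or fludarabine JVM2_94 (edgeR adjusted p = 0.0604 to 0.0675).

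CHEK1, the kinase below ATR, fell mainly with idelalisib. In MEC1, CHEK1 measured 105, 117 and 113 CPM with DMSO, 102, 95.997 and 107 with fludarabine, 52.95, 56.6 and 61.5 with ibrutinib and 47.4, 44.996 and 54.1 with idelalisib. In JVM2, CHEK1 measured 24.7, 18.1 and 19.7 CPM with DMSO, 7.39, 10.4 and 10.8 with fludarabine, 21.1, 23.3 and 24.1 with ibrutinib and 11.9, 10.8 and 7.27 with idelalisib. In EHEB, CHEK1 measured 32.5, 20.1 and 26.0 CPM with DMSO, 28.4, 24.6 and 25.4 with fludarabine, 19.0, 27.0 and 27.7 with ibrutinib and 11.3, 9.73 and 13.8 with idelalisib. Idelalisib changed it by -1.19 ± 0.09, -1.06 ± 0.20 and -1.18 ± 0.20 in MEC1, JVM2 and EHEB (log2; edgeR adjusted p = 6.04e-07, 0.00122 and 8.67e-04), and no idelalisib library reached its DMSO group. Fludarabine lowered it in JVM2 (-1.13 ± 0.20, adjusted p = 7.10e-04), while the 95% intervals were -0.32 to 0.05 in MEC1 and -0.43 to 0.42 in EHEB. Ibrutinib lowered CHEK1 in MEC1 (-0.97) and left overlapping groups in JVM2 and EHEB.

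CHEK2, the kinase below ATM, fell with idelalisib in JVM2 and EHEB. In MEC1, CHEK2 measured 26.3, 29.3 and 25.04 CPM with DMSO, 33.0, 32.6 and 32.9 with fludarabine, 24.1, 26.9 and 24.6 with ibrutinib and 36.4, 26.0 and 34.0 with idelalisib. In JVM2, CHEK2 measured 11.6, 13.5 and 10.9 CPM with DMSO, 9.76, 10.1 and 9.11 with fludarabine, 11.6, 12.3 and 11.8 with ibrutinib and 7.73, 7.36 and 6.98 with idelalisib. In EHEB, CHEK2 measured 14.5, 13.5 and 14.4 CPM with DMSO, 15.9, 14.5 and 13.6 with fludarabine, 11.3, 10.9 and 11.3 with ibrutinib and 6.97, 8.05 and 8.89 with idelalisib. Idelalisib lowered it in JVM2 (-0.71 ± 0.09, edgeR adjusted p = 1.01e-04) and in EHEB (-0.83 ± 0.10, adjusted p = 8.74e-05). With fludarabine it fell in JVM2 by 0.32, a call that ended without DMSO JVM2_86 or fludarabine JVM2_96 (edgeR adjusted p = 0.0501 to 0.0636), and with library size scaling the change there was -0.12 and did not pass. The fall with ibrutinib in EHEB (-0.34) ended without any 1 of the 6 libraries (edgeR adjusted p = 0.0597 to 0.104).

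Of the chromatin factors, H2AFX, the histone variant phosphorylated around breaks (H2AX), fell 2.79-fold with fludarabine in JVM2 (-1.48 ± 0.06) and fell by 0.33 in MEC1. The EHEB change of 0.12 did not pass. In JVM2, H2AFX measured 76.5, 81.1 and 83.0 CPM with DMSO, 28.6, 29.4 and 28.2 with fludarabine, 53.8, 53.7 and 58.1 with ibrutinib and 30.6, 32.5 and 34.6 with idelalisib. Both inhibitors lowered it in every line, with idelalisib changes of -0.42, -1.299 and -1.06 in MEC1, JVM2 and EHEB. RNF168, the ubiquitin ligase that spreads the mark, fell in MEC1 with all 3 drugs (-1.76 with idelalisib, -1.37 with ibrutinib and -0.64 with fludarabine). MDC1, the scaffold that reads H2AX, fell in MEC1 with ibrutinib (-0.74) and idelalisib (-1.303) and rose in EHEB with both (0.35 and 0.40). TP53BP1, which favours end joining and shares 28.8% of its exon bases with other genes, rose in JVM2 with every drug (0.66, 0.59 and 0.86 with fludarabine, ibrutinib and idelalisib). RNF8, the ligase before RNF168, was called once, with idelalisib in JVM2 (-0.30). Calls that ended when 1 library was left out were H2AFX with ibrutinib in EHEB without ibrutinib EHEB_280 or EHEB_281 (edgeR adjusted p = 0.0549 to 0.0608); MDC1 with ibrutinib in EHEB without ibrutinib EHEB_280 (edgeR adjusted p = 0.0548); RNF168 with fludarabine in EHEB without DMSO EHEB_134 or EHEB_135 or fludarabine EHEB_143 or EHEB_144 (edgeR adjusted p = 0.0562 to 0.0821); RNF168 with ibrutinib in JVM2 without DMSO JVM2_87 or ibrutinib JVM2_233 or JVM2_234 (edgeR adjusted p = 0.0577 to 0.0644).

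In the group of MRN, end resection and RecQ helicases, EXO1, a nuclease that lengthens resected ends, had the largest changes. In MEC1, EXO1 measured 104, 108 and 103 CPM with DMSO, 124, 115 and 116 with fludarabine, 52.8, 49.3 and 59.2 with ibrutinib and 49.0, 50.5 and 50.4 with idelalisib. In JVM2, EXO1 measured 13.0, 12.9 and 15.2 CPM with DMSO, 3.78, 4.84 and 3.79 with fludarabine, 12.3, 14.5 and 13.1 with ibrutinib and 3.505, 4.27 and 4.65 with idelalisib. In EHEB, EXO1 measured 13.1, 14.2 and 12.7 CPM with DMSO, 16.1, 15.8 and 17.3 with fludarabine, 12.9, 10.9 and 12.2 with ibrutinib and 3.73, 3.75 and 2.86 with idelalisib. EXO1 was 3.31-fold lower with fludarabine and 3.29-fold lower with idelalisib in JVM2 (-1.72 ± 0.14 and -1.72 ± 0.14, edgeR adjusted p = 2.05e-06 and 3.18e-06). In EHEB it fell by 1.94 with idelalisib (adjusted p = 6.48e-07), whereas with fludarabine the change was 0.31 ± 0.11 and did not pass (adjusted p = 0.0545). Both inhibitors lowered EXO1 in MEC1 (-0.97 and -1.07). BLM, a helicase that also dissolves recombination intermediates, rose in MEC1 (0.36) and fell in JVM2 (-1.03) with fludarabine, and NBN, the MRN subunit that calls ATM, fell in MEC1 with fludarabine (-0.45) but rose with ibrutinib and idelalisib (0.94 and 0.94). MRE11, the nuclease of MRN, fell in MEC1 and JVM2 with fludarabine (-0.51 and -0.34). RBBP8, which starts resection, was called in opposite directions with fludarabine, at 0.26 in MEC1 and -0.20 in JVM2, and with library size scaling the JVM2 change was 0.0051. Of these, the calls ended for RBBP8 with fludarabine in MEC1 without DMSO MEC1_37 or MEC1_38 or fludarabine MEC1_46 or MEC1_48 (edgeR adjusted p = 0.0605 to 0.0963) and RBBP8 with fludarabine in JVM2 without DMSO JVM2_86 or JVM2_87 or fludarabine JVM2_94 or JVM2_95 (edgeR adjusted p = 0.0625 to 0.142). WRN, a helicase with its own nuclease, fell with fludarabine in MEC1 (-0.45) and in EHEB (-0.25), and the EHEB call ended without DMSO EHEB_133 or EHEB_134 or EHEB_135 or fludarabine EHEB_142 or EHEB_143 (edgeR adjusted p = 0.0525 to 0.134).

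Among the homologous recombination genes in MEC1, 6 of 10 members were higher and 2 lower with fludarabine, against 2 higher and 5 lower in JVM2 and 4 higher and 1 lower in EHEB (called higher and lower over all genes 21.2% and 22.7% in MEC1, 23.9% and 23.3% in JVM2, 18.4% and 19.2% in EHEB). With library size scaling the same 10 genes gave 7 higher and 0 lower in MEC1, 5 and 3 in JVM2 and 4 and 1 in EHEB, so the balance in JVM2 turned. XRCC2, a homologous recombination factor, showed the widest contrast. In MEC1, XRCC2 measured 22.5, 26.3 and 24.0 CPM with DMSO, 45.2, 45.6 and 45.7 with fludarabine, 22.7, 25.5 and 25.6 with ibrutinib and 23.7, 25.1 and 25.6 with idelalisib. In JVM2, XRCC2 measured 5.82, 5.19 and 5.32 CPM with DMSO, 1.99, 1.43 and 1.21 with fludarabine, 5.49, 5.41 and 5.74 with ibrutinib and 1.75, 2.1001 and 2.58 with idelalisib. In EHEB, XRCC2 measured 5.76, 6.81 and 8.31 CPM with DMSO, 7.59, 9.42 and 8.84 with fludarabine, 7.50, 5.39 and 7.49 with ibrutinib and 3.59, 2.51 and 3.14 with idelalisib. With fludarabine it rose 1.87-fold in MEC1 (0.91 ± 0.08, edgeR adjusted p = 4.02e-06), above the other 9 libraries, and was 3.52-fold lower in JVM2 (-1.81 ± 0.19, adjusted p = 1.86e-05). Idelalisib lowered XRCC2 in JVM2 and EHEB (-1.34 and -1.18), while in MEC1 the idelalisib and DMSO libraries overlapped.

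BRCA1 organises resection and recombination. In MEC1, BRCA1 measured 91.4, 86.1 and 78.9 CPM with DMSO, 166, 118 and 119 with fludarabine, 56.1, 58.2 and 86.7 with ibrutinib and 48.5, 58.4 and 54.6 with idelalisib. In JVM2, BRCA1 measured 20.9, 21.0 and 20.9 CPM with DMSO, 11.7, 12.5 and 16.3 with fludarabine, 20.3, 28.8 and 31.6 with ibrutinib and 14.6, 13.0 and 16.4 with idelalisib. In EHEB, BRCA1 measured 28.5, 32.9 and 23.9 CPM with DMSO, 20.9, 31.7 and 22.5 with fludarabine, 32.7, 26.3 and 24.5 with ibrutinib and 13.5, 12.9 and 18.5 with idelalisib. It rose with fludarabine in MEC1 (0.65 ± 0.17, edgeR adjusted p = 0.0104) and fell in JVM2 (-0.64 ± 0.17, adjusted p = 0.00905), the latter losing its call with library size scaling (-0.43). Idelalisib lowered BRCA1 in MEC1, JVM2 and EHEB (-0.67, -0.51 and -0.93), and the JVM2 call ended without DMSO JVM2_85 or JVM2_86 or JVM2_87 or idelalisib JVM2_238 or JVM2_239 (edgeR adjusted p = 0.06 to 0.11). BRCA2, a tumour suppressor of homologous recombination, rose with fludarabine in MEC1 (0.52), and XRCC3, which acts in a complex with RAD51C and has 76.7% of its exon bases in other genes, rose there as well (0.46).

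RAD52, an annealing factor, gave few counts. In MEC1, RAD52 measured 4.96, 5.46 and 5.35 CPM with DMSO, 6.75, 8.47 and 4.60 with fludarabine, 9.59, 10.2 and 8.53 with ibrutinib and 10.9, 9.03 and 6.79 with idelalisib. In JVM2, RAD52 measured 6.26, 4.88 and 4.97 CPM with DMSO, 5.44, 8.81 and 9.04 with fludarabine, 4.64, 3.46 and 5.10 with ibrutinib and 6.35, 5.21 and 6.13 with idelalisib. In EHEB, RAD52 measured 5.56, 6.96 and 6.07 CPM with DMSO, 9.91, 9.75 and 7.94 with fludarabine, 9.09, 10.9 and 5.83 with ibrutinib and 8.87, 8.55 and 7.94 with idelalisib. It rose with fludarabine in EHEB (0.57 ± 0.20, edgeR adjusted p = 0.0418), a call that ended without DMSO EHEB_133 or EHEB_135 or fludarabine EHEB_142 or EHEB_143 (edgeR adjusted p = 0.101 to 0.13) and in limma-voom. In MEC1 it rose with ibrutinib (0.84) and idelalisib (0.76), the latter ending without idelalisib MEC1_190 (edgeR adjusted p = 0.0519). RAD54L, a motor of strand exchange, fell with idelalisib in every line (EHEB -1.89, JVM2 -1.38, MEC1 -1.44) and with fludarabine in MEC1 (-0.38) and JVM2 (-1.304). In EHEB, RAD54L measured 8.65, 8.50 and 9.07 CPM with DMSO, 9.38, 7.38 and 10.3 with fludarabine, 6.69, 6.43 and 6.03 with ibrutinib and 1.48, 3.03 and 2.51 with idelalisib. RAD51D was higher with fludarabine in EHEB (0.19), a call that ended without DMSO EHEB_133 or EHEB_135 or fludarabine EHEB_142 or EHEB_143 or EHEB_144 (edgeR adjusted p = 0.0503 to 0.125).

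None of the 8 Fanconi members was called in the same direction in all 3 lines with fludarabine. In JVM2 5 of them fell (all genes 23.3%) and none rose, with log2 changes of -1.502 for FANCI, -1.05 for FANCD2, -1.01 for BRIP1, -0.95 for FANCB and -0.73 for FANCA. FANCI and FANCD2 form the pair that is ubiquitylated at crosslinks, and BRIP1 is a helicase that binds BRCA1. In JVM2, FANCI measured 63.4, 56.1 and 58.6 CPM with DMSO, 19.7, 22.8 and 20.4 with fludarabine, 59.7, 60.1 and 61.4 with ibrutinib and 21.7, 23.4 and 24.5 with idelalisib. The same 5 genes fell with idelalisib in JVM2 and in EHEB, where FANCI measured 51.7, 56.0 and 52.5 CPM with DMSO, 49.2, 58.8 and 59.3 with fludarabine, 49.9, 49.2 and 49.5 with ibrutinib and 24.5, 21.4 and 27.1 with idelalisib. In MEC1 fludarabine raised FANCA (0.38) and BRIP1 (0.48) and lowered FANCI (-0.42), FANCE (-0.36) and FANCC (-0.19), the last of which read 0.05 with library size scaling. FANCE, a core complex subunit, fell further in MEC1 with ibrutinib (-1.04) and idelalisib (-1.08). In EHEB FANCM, the translocase that anchors the core complex, was the one Fanconi gene called with fludarabine (0.26). Left-out libraries ended the calls for FANCM with fludarabine in EHEB without DMSO EHEB_134 or EHEB_135 or fludarabine EHEB_144 (edgeR adjusted p = 0.0551 to 0.084); FANCE with fludarabine in MEC1 without DMSO MEC1_37 (edgeR adjusted p = 0.0523); FANCA with idelalisib in JVM2 without DMSO JVM2_86 or JVM2_87 or idelalisib JVM2_238 or JVM2_239 (edgeR adjusted p = 0.0908 to 0.155).

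POLQ, the polymerase of theta-mediated end joining, had the largest fall of any member with fludarabine. In MEC1, POLQ measured 80.2, 86.4 and 71.2 CPM with DMSO, 75.6, 90.5 and 84.7 with fludarabine, 47.2, 58.4 and 47.6 with ibrutinib and 50.9, 53.5 and 52.7 with idelalisib. In JVM2, POLQ measured 37.01, 37.8 and 36.8 CPM with DMSO, 11.3, 10.3 and 8.64 with fludarabine, 25.8, 26.5 and 25.9 with ibrutinib and 9.82, 10.6 and 11.2 with idelalisib. In EHEB, POLQ measured 14.0, 12.9 and 14.4 CPM with DMSO, 15.4, 14.6 and 17.3 with fludarabine, 9.72, 11.45 and 10.1 with ibrutinib and 2.68, 3.99 and 4.10 with idelalisib. In JVM2 it was 3.68-fold lower with fludarabine (-1.88 ± 0.09, edgeR adjusted p = 4.30e-08) and 3.53-fold lower with idelalisib (-1.82 ± 0.09, adjusted p = 1.25e-07), and those libraries overlapped. In EHEB idelalisib left it 3.81-fold lower, and fludarabine changed it by 0.20 (95% interval -0.12 to 0.51). XRCC4, the partner of LIG4, fell with fludarabine in MEC1 (-0.72) and JVM2 (-0.51), opposite to LIG4. Of the Ku subunits, XRCC6 (Ku70) fell by 0.35 in MEC1 and fell by 0.39 in JVM2, and XRCC5 (Ku80) fell by 0.27 in JVM2 and fell by 0.31 in EHEB. PRKDC, the DNA-dependent kinase that Ku recruits, fell in EHEB with fludarabine (-0.28), and both inhibitors lowered it in MEC1 (-0.48 and -0.89) and raised it in JVM2 (0.63 and 0.63).

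In base excision and single-strand break repair, LIG3, the ligase that works with XRCC1, was lowered in MEC1 by all 3 drugs. In MEC1, LIG3 measured 78.4, 69.1 and 69.9 CPM with DMSO, 37.5, 38.7 and 47.7 with fludarabine, 55.2, 45.3 and 49.6 with ibrutinib and 41.0, 41.4 and 48.2 with idelalisib. In JVM2, LIG3 measured 33.5, 33.1 and 35.5 CPM with DMSO, 30.3, 31.1 and 33.8 with fludarabine, 30.1, 27.0 and 32.0 with ibrutinib and 25.9, 26.8 and 31.0 with idelalisib. In EHEB, LIG3 measured 38.3, 40.7 and 36.4 CPM with DMSO, 39.6, 36.7 and 41.3 with fludarabine, 41.6, 38.5 and 39.4 with ibrutinib and 31.1, 35.8 and 36.5 with idelalisib. The MEC1 fall with fludarabine was -0.81 ± 0.11 (edgeR adjusted p = 1.43e-04), with ibrutinib -0.53 and with idelalisib -0.73, and no treated library there reached DMSO. Idelalisib also lowered LIG3 in JVM2 (-0.28), a call that ended without DMSO JVM2_87 or idelalisib JVM2_238 or JVM2_239 (edgeR adjusted p = 0.0652 to 0.0916). Other genes hold 30.5% of the exon bases of LIG3.

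OGG1 removes 8-oxoguanine; 29% of its exon bases lie in other genes. In MEC1, OGG1 measured 11.3, 10.05 and 10.03 CPM with DMSO, 17.4, 18.04 and 15.8 with fludarabine, 13.1, 10.8 and 10.4 with ibrutinib and 14.0, 14.2 and 12.02 with idelalisib. In JVM2, OGG1 measured 4.82, 4.73 and 5.39 CPM with DMSO, 3.96, 5.60 and 4.79 with fludarabine, 6.62, 7.86 and 6.97 with ibrutinib and 7.67, 7.0005 and 5.70 with idelalisib. In EHEB, OGG1 measured 9.27, 9.69 and 9.98 CPM with DMSO, 9.84, 8.31 and 9.90 with fludarabine, 8.96, 10.1 and 9.37 with ibrutinib and 10.8, 10.1 and 12.7 with idelalisib. Fludarabine raised it in MEC1 (0.71 ± 0.11, edgeR adjusted p = 3.95e-04), with each fludarabine library above the other 9. Calls with the inhibitors ended for OGG1 with idelalisib in MEC1 without DMSO MEC1_38 or MEC1_39 or idelalisib MEC1_190 or MEC1_191 (edgeR adjusted p = 0.0615 to 0.0726); OGG1 with ibrutinib in JVM2 without DMSO JVM2_85 or JVM2_86 or ibrutinib JVM2_233 (edgeR adjusted p = 0.0677 to 0.0778); OGG1 with idelalisib in JVM2 without DMSO JVM2_85 or JVM2_86 or idelalisib JVM2_238 or JVM2_239 (edgeR adjusted p = 0.0767 to 0.107). XRCC1, the scaffold of this pathway (28.2% of exon bases in other genes), fell with fludarabine in JVM2 (-0.49) and with both inhibitors in MEC1 (-0.77 and -1.07), as did PARP2 in MEC1 (-0.76 and -0.93). PARP2, a second strand-break sensor, was called lower in JVM2 and higher in EHEB with fludarabine (-0.22 and 0.37), calls that ended for PARP2 with fludarabine in JVM2 without DMSO JVM2_85 or JVM2_86 or fludarabine JVM2_94 or JVM2_96 (edgeR adjusted p = 0.075 to 0.123) and PARP2 with fludarabine in EHEB without DMSO EHEB_133 or EHEB_134 or fludarabine EHEB_144 (edgeR adjusted p = 0.0561 to 0.0767).

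MGMT, which takes alkyl groups off guanine directly, had the largest fall of any member with fludarabine in MEC1. In MEC1, MGMT measured 23.7, 22.1 and 26.1 CPM with DMSO, 12.5, 10.8 and 11.98 with fludarabine, 22.7, 24.8 and 20.9 with ibrutinib and 23.3, 22.2 and 20.001 with idelalisib. In JVM2, MGMT measured 2.76, 2.25 and 1.90 CPM with DMSO, 1.93, 2.41 and 1.65 with fludarabine, 2.82, 3.19 and 2.16 with ibrutinib and 3.03, 2.17 and 2.81 with idelalisib. In EHEB, MGMT measured 2.08, 1.74 and 3.18 CPM with DMSO, 1.996, 1.52 and 1.40 with fludarabine, 2.52, 1.80 and 2.90 with ibrutinib and 1.66, 1.92 and 2.38 with idelalisib. The MEC1 fludarabine libraries were below the other 9, and MGMT was 2.04-fold lower than with DMSO (-1.03 ± 0.10, edgeR adjusted p = 1.18e-05). In JVM2 and EHEB the groups overlapped at low levels, with 95% intervals of -0.70 to 0.29 and -1.12 to 0.10.

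ERCC4 is a nuclease subunit that cuts beside bulky lesions. In MEC1, ERCC4 measured 21.6, 27.2 and 20.8 CPM with DMSO, 36.3, 31.9 and 34.4 with fludarabine, 28.9, 29.6 and 28.7 with ibrutinib and 24.9, 26.2 and 25.6 with idelalisib. In JVM2, ERCC4 measured 23.5, 23.2 and 21.8 CPM with DMSO, 42.9, 36.1 and 41.4 with fludarabine, 25.8, 24.99 and 31.5 with ibrutinib and 30.1, 28.2 and 28.0 with idelalisib. In EHEB, ERCC4 measured 41.2, 41.5 and 36.8 CPM with DMSO, 40.3, 42.0 and 43.5 with fludarabine, 52.98, 47.5 and 50.1 with ibrutinib and 52.5, 38.3 and 40.7 with idelalisib. It rose with fludarabine in MEC1 (0.56 ± 0.10, edgeR adjusted p = 7.65e-04) and JVM2 (0.81 ± 0.10, adjusted p = 3.84e-05), and in EHEB the groups overlapped (95% interval -0.16 to 0.31). Its partner ERCC1, with 28.6% of its exon bases in other genes, rose in MEC1 by 0.23, a call that ended without DMSO MEC1_38 or MEC1_39 or fludarabine MEC1_46 (edgeR adjusted p = 0.0652 to 0.105). XPA, which verifies the lesion, passed no test with fludarabine and rose with idelalisib in JVM2 and EHEB (0.70 and 0.60). Single libraries ended the inhibitor calls for ERCC4 with ibrutinib in MEC1 without DMSO MEC1_37 or MEC1_39 or ibrutinib MEC1_185 (edgeR adjusted p = 0.0503 to 0.0755) and ERCC4 with idelalisib in JVM2 without DMSO JVM2_87 (edgeR adjusted p = 0.0614).

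The next comparison asked where fludarabine stood apart from DMSO and from both kinase inhibitors, requiring all 3 edgeR tests to pass in 1 direction. In MEC1 11 members were higher and 6 lower than the 3 other groups (all genes 10.8% and 11.8%). In JVM2 5 were higher and 14 lower (all genes 10.9% and 11.6%), and in EHEB 4 and 3 (all genes 9.74% and 10.2%). The inhibitor libraries carry their own range of library numbers, with no DMSO library in it, so library series and drug cannot be told apart for the inhibitors. In MEC1 the widest gaps were those of MGMT, with differences of -1.03, -0.96 and -0.90 from DMSO, ibrutinib and idelalisib, and of XRCC2, with 0.91, 0.89 and 0.87. In JVM2 they were those of BARD1 (-1.04, -1.11 and -1.10) and PARP1 (-1.18, -1.19 and -0.90), and in EHEB those of BARD1 (-1.12, -0.86 and -0.73) and ATM (-0.81, -0.57 and -1.03). The genes higher in MEC1 included BRCA1, BRCA2, PALB2, BRIP1, XRCC3 and FANCA, and those higher in EHEB were PALB2, RAD51C, LIG4 and POLB, which were also among the 5 in JVM2. PALB2 was the one gene higher by this rule in all 3 lines, and ATM the one lower in all 3. At least 1 of the 3 calls ended for LIG4 in EHEB without DMSO EHEB_134 or fludarabine EHEB_142 or EHEB_143 or EHEB_144 or ibrutinib EHEB_281 or EHEB_282 or idelalisib EHEB_286 or EHEB_287 or EHEB_288, for RAD51C in EHEB without DMSO EHEB_133 or EHEB_134 or EHEB_135 or fludarabine EHEB_142 or EHEB_144 or ibrutinib EHEB_280 or EHEB_281 or EHEB_282 or idelalisib EHEB_288 and for RAD51C in JVM2 without fludarabine JVM2_94 or JVM2_96 or ibrutinib JVM2_232 or JVM2_233 or JVM2_234 or idelalisib JVM2_238 or JVM2_239 or JVM2_240. The same held for ATM in MEC1 without DMSO MEC1_38 or MEC1_39 or fludarabine MEC1_46 or MEC1_48. In JVM2 it held for ATM without fludarabine JVM2_94 or JVM2_95 or ibrutinib JVM2_232 or JVM2_234. Further MEC1 members lost a call when each of 12 libraries was left out in turn: ERCC1 with 11 of them, RBBP8 with 4, OGG1 with 3 and XRCC6 with 2. In JVM2 these were XRCC3 with 7, H2AFX with 5 and FANCA with 4. In EHEB 2 members were higher without DMSO EHEB_134, fludarabine EHEB_142 or EHEB_144, or ibrutinib EHEB_281 or EHEB_282, and 5 were lower without ibrutinib EHEB_281. With library size scaling the counts were 24 higher and 2 lower in MEC1, 7 lower in JVM2 and 7 higher in EHEB.

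Whether the response to fludarabine differed between lines was tested as an interaction in edgeR over the 18 DMSO and fludarabine libraries. Of the 53 genes, 29 differed between JVM2 and MEC1 (25.2% of all genes did), 24 between EHEB and MEC1 (29.4%) and 24 between EHEB and JVM2 (22.2%). XRCC2, POLQ and EXO1 led the first pair, with JVM2 minus MEC1 differences of -2.75 ± 0.22, -1.99 ± 0.14 and -1.93 ± 0.13 on the log2 scale (edgeR adjusted p = 1.75e-07, 4.80e-08 and 2.78e-08). They also led EHEB minus JVM2, at 2.08 ± 0.22, 2.04 ± 0.14 and 1.99 ± 0.13 (adjusted p = 4.93e-06, 5.21e-08 and 2.82e-08). Between EHEB and MEC1 the leaders were BRCA1 (-0.91 ± 0.25, adjusted p = 0.0121), OGG1 (-0.83 ± 0.17, adjusted p = 0.00173) and LIG3 (0.77 ± 0.13, adjusted p = 2.48e-04). LIG4 rose more in JVM2 than in EHEB (EHEB minus JVM2 -0.94 ± 0.10, adjusted p = 6.01e-06) and BLM, BRIP1, FANCD2, FANCI, H2AFX and RAD54L responded lower in JVM2 than in EHEB, with EHEB minus JVM2 differences from 0.93 to 1.57. With fludarabine, 9 members were called in opposite directions in different lines, as were 9.62% of the 15181 genes: ATR, RBBP8, BLM, BRCA1, XRCC2, XRCC3, FANCA, BRIP1 and PARP2. Of the calls behind this count, those of ATR in EHEB, RBBP8 in MEC1 and in JVM2, and PARP2 in JVM2 and in EHEB ended with single libraries left out as given for each gene, and that of XRCC3 in JVM2 (-0.35) ended without DMSO JVM2_85 or JVM2_87 or fludarabine JVM2_95 (edgeR adjusted p = 0.0685 to 0.0953).

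**Figure D4:**
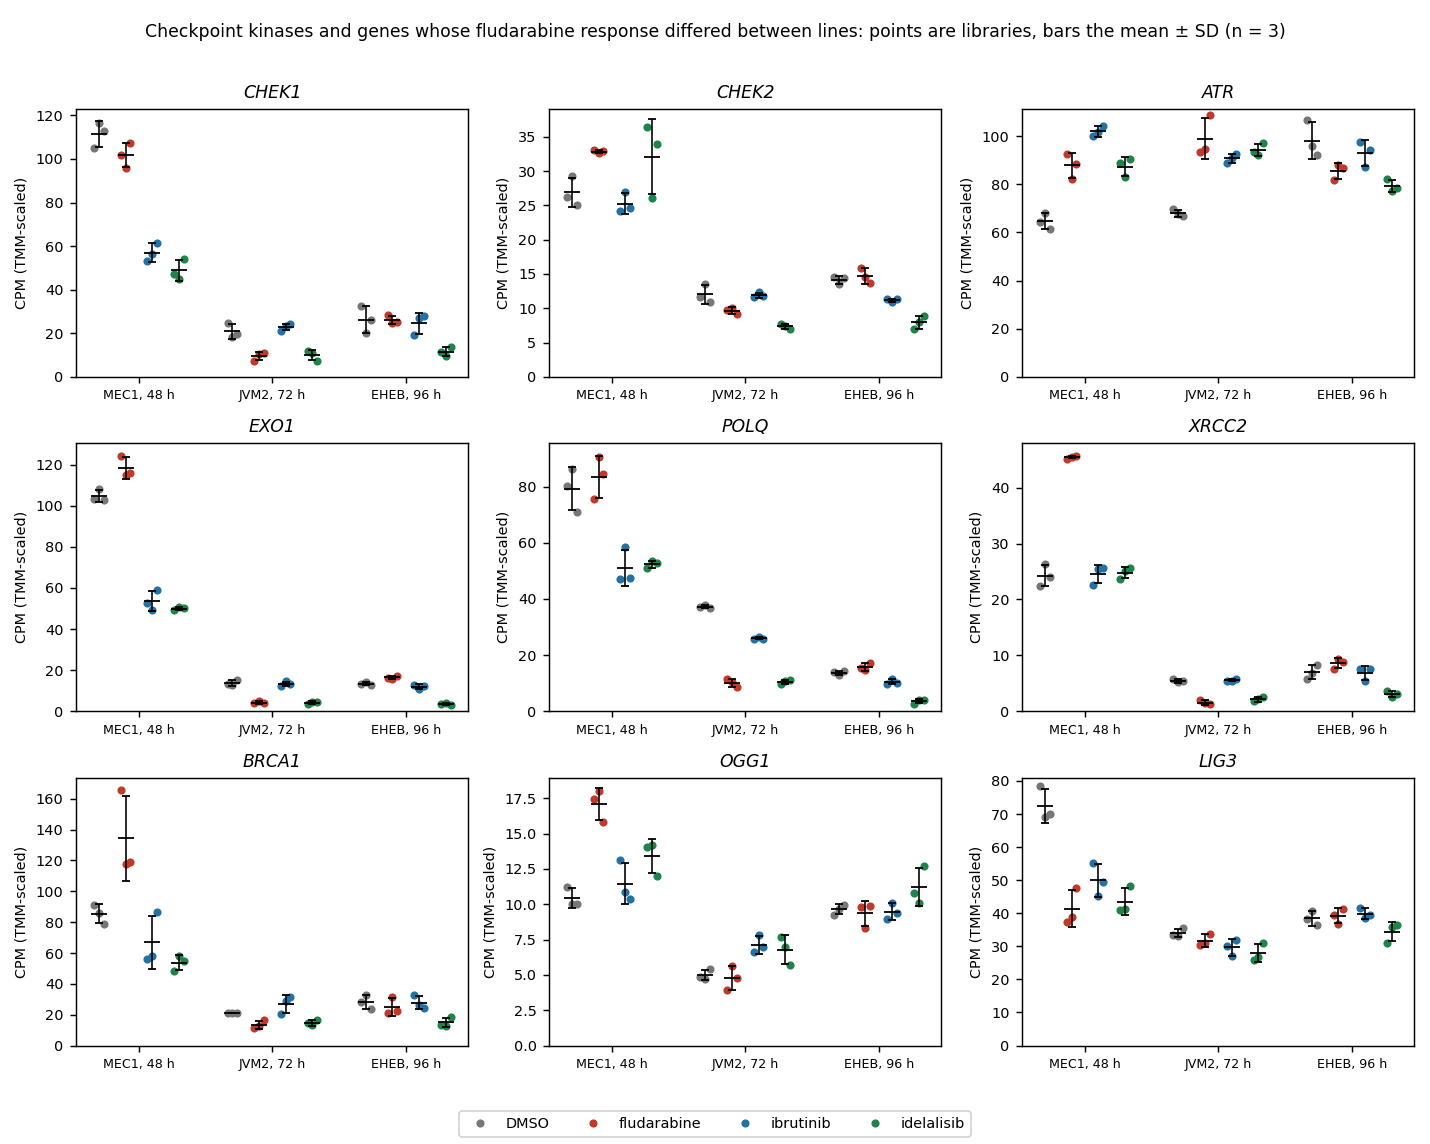
Panels give the CPM of CHEK1, CHEK2, ATR and 6 genes, with points for libraries and bars for the mean ± SD of 3. The 6 genes are those with the 3 largest differences of the fludarabine response within any pair of lines. EXO1, POLQ and XRCC2 are low with fludarabine and idelalisib in JVM2 and with idelalisib in EHEB, and XRCC2, BRCA1 and OGG1 are highest with fludarabine in MEC1.

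The genes that fell with fludarabine in JVM2 and with idelalisib in JVM2 and EHEB moved beside cell cycle genes, whose values are given as measured. Over all genes tested, fludarabine lowered 23.3%, 19.2% and 22.7% in JVM2, EHEB and MEC1 and raised 23.9%, 18.4% and 21.2%. Idelalisib lowered 22.6%, 18.2% and 27.4% of all genes in the same order of lines, and ibrutinib lowered 15%, 11.2% and 23.9%. Of 15 mitosis genes, 15 fell with fludarabine in JVM2 (median -3.12), 9 in EHEB (-0.38) and 5 in MEC1 (-0.08), and 15, 15 and 12 fell with idelalisib in JVM2, EHEB and MEC1 (medians -2.24, -1.80 and -0.69). Of 20 S-phase genes, 15 fell and 2 rose with fludarabine in JVM2 (median -0.84), 7 fell and 2 rose in EHEB (-0.08) and 6 fell and 4 rose in MEC1 (-0.10); with idelalisib 15, 20 and 13 fell in JVM2, EHEB and MEC1. With ibrutinib 16 S-phase genes fell in MEC1, 2 in JVM2 and 3 in EHEB. Of 20 p53 target genes, 17 rose with fludarabine in JVM2 (median 1.01), 15 in EHEB (1.24) and 10 of the 19 tested in MEC1 (0.24). MDM2, the ubiquitin ligase of p53, changed by 1.89 in JVM2, 1.61 in EHEB and 0.11 in MEC1, the last without passing the test. The part of cell cycle and p53 genes in the repair gene changes was not tested.

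Other genes of the same pathways, listed apart from the 53, were counted by the same test with fludarabine, where higher and lower calls made up all genes 21.2% and 22.7% in MEC1, 23.9% and 23.3% in JVM2, 18.4% and 19.2% in EHEB. Of 10 checkpoint clamp and adaptor genes, the calls were 2 higher with 2 lower for MEC1, 1 higher with 3 lower for JVM2 and 1 higher with 1 lower for EHEB. CLSPN, the adaptor that links ATR to CHEK1, changed by 0.79 ± 0.07 in MEC1, -0.52 ± 0.20 in JVM2 and 0.30 ± 0.09 in EHEB. Its JVM2 value did not pass. RAD17, which loads the clamp, fell in each line (-0.57, -0.32 and -0.22 in MEC1, JVM2 and EHEB), and TIMELESS, a fork protection protein, passed the test in JVM2 only, with fludarabine (-0.67). Of 20 recombination, crosslink and end-processing genes, the calls were 6 higher with 8 lower for MEC1, 3 higher with 10 lower for JVM2 and 1 higher with 7 lower for EHEB. RAD51B, another recombination factor, fell in each line (-0.59, -1.45 and -1.23), opposite to RAD51C. DMC1, the meiotic recombinase, changed by 0.50, -1.56 and -1.45, and GEN1, a junction resolvase, passed no test (0.92, 1.02 and 0.54). Of 32 excision, mismatch and bypass genes, they were 4 higher with 11 lower for MEC1, 11 higher with 10 lower for JVM2 and 11 higher with 6 lower for EHEB. XPC, the lesion sensor of nucleotide excision repair, rose in JVM2 (1.26 ± 0.05) and EHEB (1.27 ± 0.06) and fell in MEC1 (-0.33 ± 0.08). NEIL3, a glycosylase of dividing cells, fell in JVM2 (-2.38 ± 0.19), and TDG, a thymine glycosylase, rose in MEC1 (0.88) and JVM2 (1.22).

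Per kilobase of merged exon, XRCC6 and XRCC5 were among the most abundant members with DMSO, at 107, 97.9 and 98.3 CPM per kilobase for XRCC6 and 58.9, 63.9 and 85.004 for XRCC5 in MEC1, JVM2 and EHEB. H2AFX had 152, 50.4 and 31.5. MGMT, the lowest of the 53 in JVM2 and EHEB (0.353 and 0.357), had 3.67 in MEC1, where FANCB, RAD52, OGG1 and RAD51C were the lowest. Merged exons take in all annotated transcripts, 16404 bases for RAD51C against 1816 for XPA. The ranks therefore depend on this divisor as well as on the counts. These levels were scaled within each line, so lines are set side by side without a test.

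Library totals ran from 26590705 to 53538925 estimated counts, and the mitochondrial share from 0.396% to 2.66%. In MEC1 this share was 0.396% to 0.608% with DMSO, 0.792% to 1.06% with fludarabine, 0.682% to 0.862% with ibrutinib and 0.913% to 0.958% with idelalisib. In JVM2 it was 0.420% to 0.467% with DMSO, 0.768% to 1.16% with fludarabine, 0.679% to 0.828% with ibrutinib and 0.886% to 1.02% with idelalisib. In EHEB it was 1.27% to 1.66% with DMSO, 2.28% to 2.66% with fludarabine, 1.67% to 2.31% with ibrutinib and 1.45% to 2.05% with idelalisib. The treated groups lay above DMSO in MEC1 and JVM2 with each drug, and in EHEB idelalisib overlapped it. All 7 B-cell markers were above 0 in each group, and their summed level was 1335 to 1361 CPM with DMSO and 719 to 779 with fludarabine in JVM2, with 1469 to 1534 for ibrutinib and 1494 to 1547 for idelalisib. In EHEB it was 1686 to 1763 CPM with DMSO and 989 to 1103 with fludarabine, with 1666 to 1812 for ibrutinib and 1712 to 1737 for idelalisib. It was 1129 to 1204 with DMSO, 971 to 985 with fludarabine and 1852 to 2030.2 and 1845 to 1923 with ibrutinib and idelalisib in MEC1. The 7 myeloid markers summed to 6.81 to 8.59 CPM with DMSO, 25.04 to 28.7 with fludarabine, 29.7 to 33.2 with ibrutinib and 42.6 to 45.8 with idelalisib in MEC1. In JVM2 the sum was 10.9 to 14.0 CPM with DMSO, 40.1 to 41.7 with fludarabine, 17.4 to 19.3 with ibrutinib and 36.7 to 39.8 with idelalisib. In EHEB the sum was 22.9 to 27.3 CPM with DMSO, 66.7 to 77.2 with fludarabine, 22.9 to 25.6 with ibrutinib and 24.5 to 28.6 with idelalisib. The 6 T or NK cell markers summed to at most 58.5 CPM and the 7 erythroid or fibroblast markers to at most 24.7 CPM in any library, with CD3D at 0 in each group but EHEB with fludarabine and with idelalisib. The part of these in the repair gene changes was not tested.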

How the data were processed

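Total RNA of the 36 libraries was depleted of ribosomal RNA and sequenced. The authors trimmed reads with Trimmomatic, aligned them to GRCh38 with HISAT2 (2.1) and made gene counts with StringTie (1.3.4); the labels also name edgeR (3.22.5). The deposited values are whole-number estimated counts per gene symbol, and low values lay near multiples of 8/3, so 1 count is not 1 read. Entries without a symbol held 0.00384% of counts.

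Counts were tested in edgeR 4.0.16 (R 4.3.3) with filterByExpr (minimum count 10), TMM and the quasi-likelihood test, each line of 12 libraries alone, with Benjamini-Hochberg adjustment over all genes tested. Differences between lines came from 1 fit of the 18 DMSO and fludarabine libraries. The fits were run on simulated counts with the same dispersion for all genes and far fewer changed genes than were called here. That setting cannot test the choice of scaling. Alternatives were DESeq2 1.42.0, limma-voom 3.58.1, library size scaling, other filters and fits, each library left out and, chosen after seeing the data, counts divided by 8/3.

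The 53 genes and all lists were chosen with earlier results of these data known. Values in every library are printed for ATM, ATR, CHEK1 and CHEK2, for members called the same way with fludarabine in all 3 lines (up to 5 each way), and for the largest changes in each line (2 each way), in the comparison with the 3 other groups (2 a line) and between lines (3 a pair); the remaining members were named from the role groups after their values were seen, and so were H2AFX, FANCI and RAD54L, whose library values are printed. Replicates differed by more than counting noise (chi-square per degree of freedom 27.3 to 54.0), so none were merged. Exon overlaps come from GENCODE on GRCh38; 9 members shared over 20% of their exon bases with other genes.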

Additional observations from a re-analysis of the deposited data

Results flagged for a closer look

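The difference of the fludarabine response between lines was itself tested, and the 3 largest differences among members are listed for each pair of lines. Members outside this list differed by more than the EHEB minus MEC1 values in other pairs, such as H2AFX (EHEB minus JVM2 1.57). JVM2 minus MEC1 differences were -2.75 for XRCC2, -1.99 for POLQ and -1.93 for EXO1 on the log2 scale. EHEB minus JVM2 differences were 2.08 for XRCC2, 2.04 for POLQ and 1.99 for EXO1. These 3 genes serve recombination, theta-mediated end joining and end resection. EHEB minus MEC1 differences were -0.91 for BRCA1, -0.83 for OGG1 and 0.77 for LIG3; the exons of OGG1 and LIG3 overlap other genes by 29% and 30.5%. For each of them the line, with its sensitivity to the shared dose, cannot be told apart from its exposure time.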

How the results depend on the processing

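Of the 477 comparisons of a member with DMSO, 235 were called, and 159 of these kept direction and call under every alternative and with each library left out; 57 lost their call with at least 1 library left out. Library size scaling changed most. With it, fludarabine gave 29 members higher and 4 lower in MEC1, 14 higher in JVM2 and 14 higher in EHEB; ibrutinib gave 10 higher and 1 lower in EHEB; idelalisib gave 5 higher in MEC1, 15 lower in JVM2 and 9 higher in EHEB. Members where fludarabine differed from the 3 other groups were then 24 higher and 2 lower in MEC1, 7 lower in JVM2 and 7 higher in EHEB. The changes of RBBP8 in JVM2 (0.0051), FANCC in MEC1 (0.055) and PMS2 in JVM2 (0.19, edgeR adjusted p = 0.0427) with fludarabine reversed under it, and the adjusted p of PMS2 is the one of the 3 under 0.05. Without a filter the higher calls were 4 with fludarabine in EHEB, 5 with ibrutinib in MEC1 and 2 for fludarabine against the 3 other groups in EHEB, and the lower calls with ibrutinib in EHEB were 1. DESeq2 gave 4 lower with ibrutinib in EHEB, and a mean of at least 5 CPM gave 7 higher with idelalisib in EHEB. Counts divided by 8/3 moved no count by over 1.5 times. The causes were not tested beyond the scaling shift given in the report. With 1 library left out, higher and lower calls with fludarabine ranged from 14 to 17 and from 15 to 16 in MEC1, stayed at 8 and ranged from 23 to 25 in JVM2, and from 5 to 6 and from 5 to 9 in EHEB. With ibrutinib they ranged from 6 to 8 and 19 to 21 in MEC1, 10 to 12 and 3 to 6 in JVM2, and 3 to 5 and 0 to 3 in EHEB. With idelalisib they ranged from 5 to 8 and 22 to 25 in MEC1, 10 to 12 and 17 to 23 in JVM2, and 4 to 5 and 21 to 24 in EHEB. Against the 3 other groups the higher and lower counts ranged from 8 to 12 and 5 to 6 in MEC1, 4 to 5 and 11 to 15 in JVM2, and 2 to 3 and 3 to 5 in EHEB. Differences between lines ranged from 25 to 29 (JVM2 minus MEC1), 21 to 25 (EHEB minus MEC1) and 22 to 24 (EHEB minus JVM2). No paired analysis was possible because the groups share no replicate numbers. Low-count members such as MGMT, RAD52 and XRCC2 in JVM2 and EHEB were measured with wide intervals, so small changes were not detectable there.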
